A study of Mus musculus with 2 samples.

Results

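The 43 genes described here encode the enzymes and factors that copy DNA in every dividing cell. Members were chosen by gene symbol, from origin recognition to nucleotide supply, and all 43 were found among the 19087 named genes of the arrays, through 66 probes. Messenger RNA was compared between Tcl1 stable transformants and Tcl1 gene disruptants of mouse embryonic stem cells on 2 two-colour Agilent arrays. Tcl1 encodes a small protein that binds the kinase Akt. In the disruptants a PGK-puro cassette had taken the place of parts of exon 2 and exon 3 in both Tcl1 alleles, and the homozygous clones had been selected with high puromycin. The transformants carried the same disrupted alleles plus the expression vector CAG-Tcl1ireszeopA, put into disruptant clone 4, so they share 1 parent clone. Array 1 compared transformant clone 1, labelled with Cy5, with disruptant clone 4, labelled with Cy3. Array 2 compared transformant clone 4, labelled with Cy3, with disruptant clone 6, which also carried a CAG-EGFP vector and was labelled with Cy5. All clones were kept on gelatin with LIF and no feeders.

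Each value below is a log2 ratio of transformant over disruptant, so a negative value means less RNA in the transformant, and the array 1 value is given before that of array 2. The deposited table holds 1 ratio per spot and no intensity. Its log10 scale is inferred, the way it was centred is unknown, and its direction is taken as Cy5 over Cy3, which is how the Agilent program writes ratios but is not stated. If the opposite direction holds, every sign below turns. Ratios compare the clones of 1 array with each other and do not give the level of a gene or show whether it was above background. For the disruptant of array 1 the labels name no vector. Clones, dye orientation and the EGFP vector all differed between the arrays, so these cannot be told apart as sources of a difference between the arrays. In such bulk RNA, fewer cells in S phase and less RNA per cell cannot be told apart either.

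Replication starts when the origin recognition complex, with Cdc6 and Cdt1, loads a ring of Mcm2 to Mcm7 onto DNA before S phase. Cdc45 and the GINS complex then turn the ring into an active helicase, and polymerase alpha with primase, polymerases delta and epsilon, the Pcna clamp and its Rfc loader copy both strands. Many of these genes are transcribed at the entry to S phase by E2F factors, and mouse embryonic stem cells, which divide fast and have a short G1 phase, are known for keeping them active.

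The promoters of the members are shown first, because many of these genes are known targets of E2F factors. A RefSeq table of promoters on GRCm38.p6 held 36 of the 43 members, and the 250 bases before the first start listed for each gene were searched on both strands. The E2F words were TTTCCCGC, TTTCGCGC, TTTGCCGC and TTTGGCGC, which can overlap one another on opposite strands, and the second motif was CCAAT, the word bound by factor NF-Y. An E2F word was found in 9 of 36 member promoters (25%), against 517 of 27025 promoters of all listed genes (1.91%). CCAAT was found in 21 of 36 (58.3%), against 34.5% of all promoters. Both motifs together were found in 7 members (19.4%), against 0.773% of all promoters. The promoters of all genes were not matched to the members for CpG content, and every E2F word holds a CG.

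Of the promoters printed here, those of Pcna, Orc5 and Mcm10 belong to the clamp gene and to the 2 members with the lowest ratios shared by both arrays. Mcm6, also low on both arrays, and Gins3, with opposite signs on the arrays, were added after their values were seen, because both hold an E2F word. Capitals mark E2F words and CCAAT, or ATTGG where CCAAT lies on the other strand.
Pcna, chr2:132253181-132253430, minus strand: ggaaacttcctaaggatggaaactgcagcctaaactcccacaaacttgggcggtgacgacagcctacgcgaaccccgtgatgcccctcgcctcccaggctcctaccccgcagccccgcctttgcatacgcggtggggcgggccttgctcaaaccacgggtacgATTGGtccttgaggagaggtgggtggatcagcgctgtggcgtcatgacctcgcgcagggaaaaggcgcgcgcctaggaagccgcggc
Orc5, chr5:22550339-22550588, minus strand: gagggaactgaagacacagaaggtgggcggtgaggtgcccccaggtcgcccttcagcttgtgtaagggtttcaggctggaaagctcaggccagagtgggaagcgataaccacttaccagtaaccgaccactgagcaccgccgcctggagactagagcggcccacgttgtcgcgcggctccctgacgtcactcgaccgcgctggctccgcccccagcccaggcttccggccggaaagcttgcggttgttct
Mcm10, chr2:5012792-5013041, minus strand: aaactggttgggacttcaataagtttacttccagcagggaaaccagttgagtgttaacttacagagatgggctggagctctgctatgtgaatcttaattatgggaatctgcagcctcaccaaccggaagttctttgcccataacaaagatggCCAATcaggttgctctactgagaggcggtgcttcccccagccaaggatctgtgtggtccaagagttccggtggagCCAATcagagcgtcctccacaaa
Mcm6, chr1:128359706-128359955, minus strand: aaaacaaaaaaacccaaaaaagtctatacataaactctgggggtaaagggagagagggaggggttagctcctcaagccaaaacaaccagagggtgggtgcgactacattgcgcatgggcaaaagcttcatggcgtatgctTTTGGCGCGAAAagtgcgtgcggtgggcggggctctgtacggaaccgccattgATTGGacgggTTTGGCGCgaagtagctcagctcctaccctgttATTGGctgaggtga
Gins3, chr8:95633309-95633558, plus strand: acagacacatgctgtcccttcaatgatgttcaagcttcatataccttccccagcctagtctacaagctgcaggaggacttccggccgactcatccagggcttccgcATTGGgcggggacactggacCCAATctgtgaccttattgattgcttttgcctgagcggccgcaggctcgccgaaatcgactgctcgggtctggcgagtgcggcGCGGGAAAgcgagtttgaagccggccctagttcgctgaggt

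The Mcm6 promoter held E2F words from 103 to 110 and from 40 to 47 bases before the start, and a word on the other strand from 99 to 106 that overlaps the first. In Gins3 an E2F word lay 34 to 41 bases before the start. Mcm10 had CCAAT at 94 to 98 and at 19 to 23 bases, and Pcna had it at 83 to 87 bases on the other strand. The Orc5 window held neither of these words. A match is a description of letters and not evidence of binding.

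Most replication genes read below 0, that is lower in the transformants, on each array. Of the 43 members, 22 (51.2%) were below 0 on both arrays, beside 19.4% of all 19087 named genes. No member was above 0 on both (0 of 43), beside 22.1% of named genes. The other 21 (48.8%) had opposite signs, beside 55.4% of named genes. Taken array by array, 33 members (76.7%) lay below 0 on array 1, beside 47.1% of named genes, and 32 (74.4%) on array 2, beside 47.9%. The members had a median of −0.15 on array 1 and −0.50 on array 2, against 0.0053 and 0 for all named genes. The mean of the arrays was below 0 for 39 members and above 0 for 4, whereas it was below 0 for 48.9% of named genes. The members' means had a median of −0.23, or −0.35 over the 39 members with RefSeq mRNA probes when these alone were used.

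No member passed the test over all genes, and with a pair of arrays this says nothing of the size of a difference. In limma with Benjamini-Hochberg adjustment over 30110 entries, 0 members and 0% of entries had an adjusted p under 0.05, and the smallest adjusted p of a member was 1. Without adjustment 7 members (16.3%) had a limma p under 0.05, all with negative ratios, beside 3.38% of named genes in either direction and 1.93% below 0. With probes deposited at exactly 0 left out, the number was 3. It was 5 with array 2 not turned, a setting that contradicts the dye labels and removes what the 2 comparisons share. So a number near 7 was also reached without a shared difference between transformant and disruptant. The share of named genes was not counted in these settings. A pair of arrays leaves 1 residual degree of freedom per gene, and a sign-flip test of 2 values cannot give a two-sided p below 0.5.

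**Figure D1:**
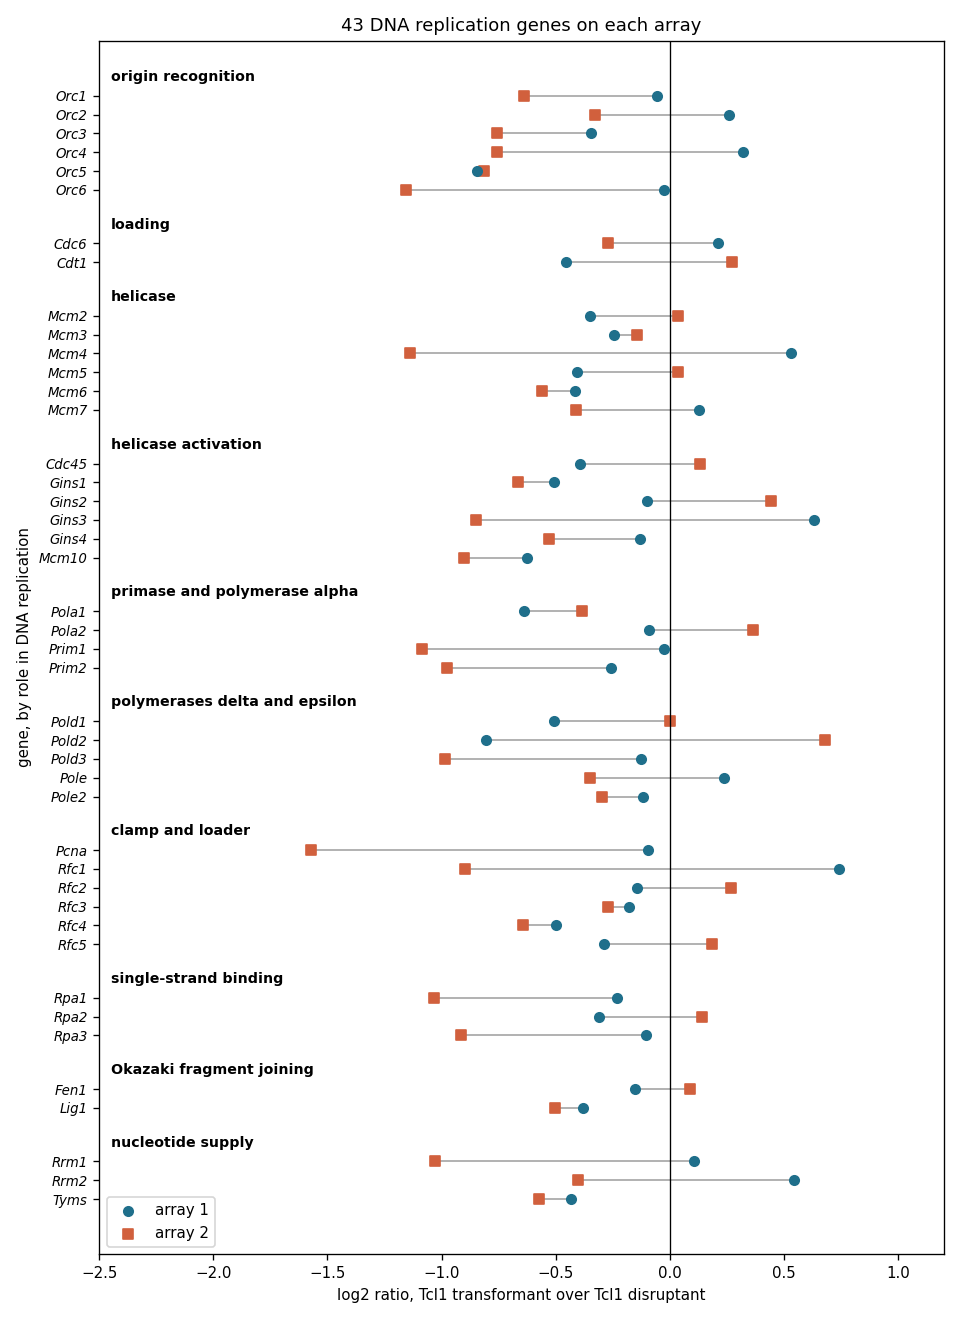
Log2 ratio of transformant over disruptant (horizontal axis) for each of the 43 replication genes (rows, by role), with a circle for array 1, a square for array 2 and a line joining them. In 22 rows both symbols lie left of 0, in no row do both lie right of 0, and in 28 rows the square of array 2 is the one further left.

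All 6 origin recognition genes were below 0 on array 2, beside 74.4% of the 43 members and 47.9% of named genes. These subunits of the complex that marks origins had ratios from −1.16 to −0.33 on array 2 and from −0.84 to 0.32 on array 1, and 4 of the 6 were below 0 on both. Orc5 had −0.84 and −0.82, the lowest pair of values shared by both arrays in all 43 members, with a mean of −0.83 ± 0.02 (SD, n = 2 arrays), a 1.78-fold lower value, and an unadjusted limma p of 0.0097 (adjusted p = 1). This near-identity rests on the averaging of its 2 probes. The probe annotated to a RefSeq mRNA gave −0.93 and −1.63, while the other gave −0.76 and a deposited value of exactly 0 on array 2. With exact zeros left out, Orc5 had −0.84 and −1.63.

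Orc6, the smallest subunit, stood at −0.03 and −1.16, and Orc1, the subunit that joins the complex in G1, at −0.06 and −0.64. For both, nearly all of the difference came from array 2. Orc3 averaged −0.34 and −0.76 over 3 probes that ranged from −1.49 to 0.43 on array 1. None of these probes was itself below 0 on both arrays, with 0.43 and −1.52, 0.03 and −0.76, and −1.49 and exactly 0. Orc2 and Orc4 had opposite signs, with 0.26 and −0.33 for Orc2 and 0.32 and −0.76 for Orc4. The 4 probes of Orc4 fell into a pair at 0.83 and −1.68 and at 0.62 and −1.48, and a pair near 0 at −0.04 and 0.04 and at −0.13 and 0.09. A further probe annotated to both Akirin2 and Orc3 was not used.

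The loading factors had no shared direction. Cdc6, which joins the origin complex to load the helicase, had 0.21 and −0.27, and Cdt1, which brings the Mcm ring, had −0.45 and 0.27. These signs are opposite between the arrays in both genes, and opposite between the genes on each array.

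Of the 6 subunits of the Mcm ring, 2 were below 0 on both arrays and 4 had opposite signs. Mcm6 had −0.42 and −0.56, with a mean of −0.49 ± 0.10 (SD, n = 2) and an unadjusted limma p of 0.037 (adjusted p = 1). Mcm3 lay closer to 0 with −0.24 and −0.15. Mcm2 and Mcm5 were alike, with −0.35 and 0.04 for Mcm2 and −0.41 and 0.03 for Mcm5, so that their array 1 value was like that of Mcm6 and their array 2 value near 0. Mcm7 had 0.13 and −0.41. Mcm4 had the widest gap between the arrays of all members, 0.53 against −1.14, and its 2 probes shared the signs but not the size, with 0.79 and −2.00 for the RefSeq mRNA probe and 0.27 and −0.28 for the other. The products of these genes form 1 ring with each in equal number, and their RNA ratios on array 2 ran from −1.14 to 0.04.

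Among the genes that turn the ring into a moving helicase, Mcm10 and Gins1 were low on both arrays. Mcm10, an initiation factor that binds the helicase, had −0.62 and −0.90, which is 1.70-fold lower on average. The mean was −0.76 ± 0.20 (SD, n = 2), with an unadjusted limma p of 0.030 (adjusted p = 1). For Gins1, a GINS subunit, the values were −0.51 and −0.67, with a mean of −0.59 ± 0.11 and an unadjusted limma p of 0.029 (adjusted p = 1). Both probes of Gins1 gave like values, with −0.58 and −0.73, and −0.43 and −0.60. Gins4 stood at −0.13 and −0.53.

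The remaining GINS subunits differed from these and from each other. Gins3 had 0.63 and −0.85, and Gins2 had −0.10 and 0.44, the highest mean of all members at 0.17 ± 0.38 (SD, n = 2). Cdc45, the partner of GINS in the helicase, had −0.39 and 0.13. The 4 GINS genes, whose products form a single complex, thus showed 3 different sign patterns.

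Genes for primase and polymerase alpha, which lay down the first stretch of RNA and DNA, were below 0 on array 1 in 4 of 4 cases and on array 2 in 3 of 4. Over all 43 members these shares were 76.7% and 74.4%. Prim2, the large primase subunit gene, had −0.26 and −0.98, and Prim1, the catalytic one, −0.03 and −1.09. The catalytic gene of polymerase alpha, Pola1, had −0.64 and −0.39 as the mean of 2 probes, of which 1 gave −1.29 and exactly 0 and the other 0.01 and −0.77. Its value below 0 on both arrays was therefore not seen in either probe. Pola2 had −0.09 and 0.37.

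For the polymerases that extend the new strands, Pold3, an accessory subunit of polymerase delta, was read alike by its probes. These 3 probes had −0.12 and −0.93, −0.04 and −0.82, and −0.21 and −1.21, so the gap between the arrays (−0.12 against −0.99) was larger than the spread between probes. Pold2, of the same polymerase, ran the other way, with −0.80 and 0.68. The catalytic gene Pold1 had −0.51 and −0.00083, so that its place among the members below 0 on both arrays rests on array 1. Pole, the catalytic subunit of polymerase epsilon, had 0.24 and −0.35. Its RefSeq mRNA probe gave 0.26 and −1.15, and its other probe 0.21 and 0.45, above 0 on both arrays. Pole2 had −0.12 and −0.30, where 1 of its 2 probes was deposited as exactly 0 on both arrays.

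Pcna, which encodes the sliding clamp that holds polymerases on DNA, had the lowest value on array 2 when probes were averaged with their exact zeros, as throughout. With exact zeros left out, Rrm1 (−2.06) and Orc5 (−1.63) lay lower there. A single probe read −0.10 and −1.57, which averages −0.83 ± 1.04 (SD, n = 2), with an unadjusted limma p of 0.274 (adjusted p = 1). The spread between the arrays was larger than the mean. Its loader subunits were spread widely. Rfc4 had −0.50 and −0.64, with a mean of −0.57 ± 0.10 (SD, n = 2) and an unadjusted limma p of 0.028 (adjusted p = 1), and Rfc3 had −0.18 and −0.27. Rfc1, the large subunit, had 0.74 and −0.90, the largest pair of opposite values among the members. Rfc2 with −0.14 and 0.27 and Rfc5 with −0.29 and 0.19 had opposite signs in the other order.

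The single-strand binding genes Rpa1 and Rpa3 read alike, with −0.23 and −1.03 for Rpa1 and −0.10 and −0.92 for Rpa3, whereas Rpa2, the middle subunit, had −0.31 and 0.14. Of the genes that finish Okazaki fragments, the DNA ligase gene Lig1 had −0.38 and −0.50, with a mean of −0.44 ± 0.09 (SD, n = 2) and an unadjusted limma p of 0.041 (adjusted p = 1). The flap nuclease gene Fen1 stayed near 0 with −0.15 and 0.09.

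Nucleotide supply genes were below 0 on array 2 in 3 of 3 cases, beside 74.4% of the 43 members and 47.9% of named genes. Tyms, which makes thymidylate, had −0.43 and −0.57, with a mean of −0.50 ± 0.10 (SD, n = 2) and an unadjusted limma p of 0.035 (adjusted p = 1). Its 2 RefSeq mRNA probes gave −0.51 and −1.05, and −0.48 and −1.04, and its other probe −0.31 and 0.36. The closeness of the arrays rests on averaging these. With RefSeq mRNA probes alone the mean was −0.77, with an unadjusted limma p of 0.078 (adjusted p = 1). The median of the probes gave −0.76, with an unadjusted limma p of 0.084 (adjusted p = 1). The ribonucleotide reductase genes were above 0 on array 1, with 0.10 and −1.03 for the large subunit Rrm1 and 0.54 and −0.40 for the small subunit Rrm2. For Rrm1 the RefSeq mRNA probe alone gave 0.21 and −2.06, and the other probe was deposited as exactly 0 on both arrays.

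**Figure D2:**
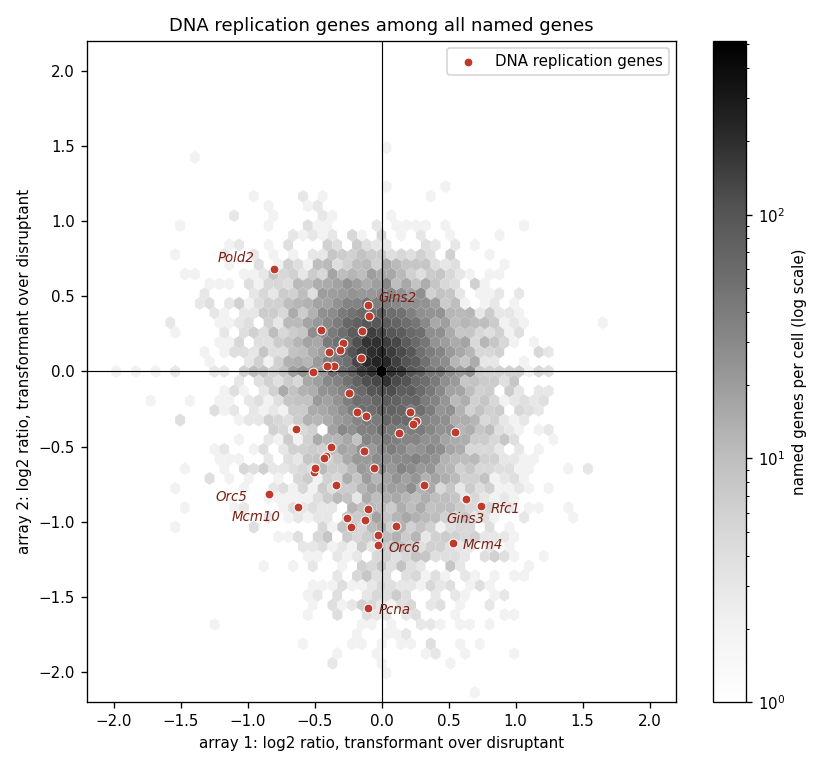
Log2 ratio on array 1 (horizontal axis) against array 2 (vertical axis) for the named genes, shaded by number, with the 43 replication genes as red points; the axes stop at 2.2 in each direction, which leaves out 89 named genes and no replication gene. The upper right of the plot, above 0 on both arrays, holds none of the 43.

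The sizes of the shared differences were modest. At 1.5-fold lower on both arrays (a log2 value of −0.58 or less) there were 2 members, Orc5 and Mcm10, or 4.65%, beside 1.22% of named genes. Just outside that limit stood Gins1, with −0.51 on array 1, and Rfc4, with −0.50. No member was 1.5-fold higher on both arrays (0 of 43), beside 0.309% of named genes. On array 2 alone 18 members (41.9%) were at least 1.5-fold lower, beside 13.7% of named genes, while on array 1 alone 4 (9.30%) were, beside 6.29%. At least 1.5-fold higher were 2 members on array 1 (Gins3 and Rfc1, or 4.65%, beside 6.5% of named genes) and 1 on array 2 (Pold2, or 2.33%, beside 4.23%). These 3 genes were also the members past 1.5-fold in opposite directions, or 6.98%, beside 2.94%. At 2-fold lower, array 2 had 6 members, which were Pcna, Orc6, Mcm4, Prim1, Rpa1 and Rrm1 (14%, beside 5.45% of named genes), and array 1 had none (0 of 43, beside 2.09%).

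Between the arrays the members varied more than their common shift. The median absolute gap between array 1 and array 2 was 0.51, beside 0.35 over all named genes, and the widest was 1.67. Array 2 gave the lower value for 28 of the 43. Among the 9 members with a gap over 1, array 2 was lower in 8, and Pold2 was the exception. The matching shares of all named genes were not counted. On array 2, 13.7% of named genes were at least 1.5-fold lower and 4.23% at least 1.5-fold higher, beside 6.29% and 6.5% on array 1. A lean of large values to the low side on array 2 was therefore not confined to the members. Of the 22 members below 0 on both arrays, 11 had values within 0.3 of each other. Across the 43 members the Pearson correlation of the arrays was −0.30 and the Spearman correlation −0.28, beside −0.14 and −0.18 over all named genes. These describe genes of the same 2 hybridisations, which are not independent replicates. Opposite signs mean that 1 dye was brighter both times, on array 1 and on array 2. This was Cy5 for 10 of them (23.3%, beside 28.2% of named genes), namely Orc2, Orc4, Cdc6, Mcm4, Mcm7, Gins3, Pole, Rfc1, Rrm1 and Rrm2. It was Cy3 for 11 (25.6%, beside 27.2%), namely Cdt1, Mcm2, Mcm5, Cdc45, Gins2, Pola2, Pold2, Rfc2, Rfc5, Rpa2 and Fen1.

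Repeat probes show how far single values can be read. Of the members, 26 had 1 probe and 17 had 2 to 4. For 8 genes with several probes annotated to the same RefSeq mRNA, the median range between these probes was 0.18 on array 1 and 0.32 on array 2. The range was narrowest for Tyms, with 0.04 and 0.01, and widest for Orc3 on array 1 (1.93) and for Orc4 on array 2 (1.72). In 3 of the 17 genes, which were Orc4, Pole and Tyms, the probe means differed in sign, for Orc4 only by a probe at 0.00083. Exact zeros were deposited for 3 probes on both arrays (of Pola2, Pole2 and Rrm1) and for 3 more on array 2 (of Orc3, Orc5 and Pola1), and averaging with them pulls a gene towards 0. Probe sequences were not examined here, so cross-hybridisation between related genes was not tested.

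**Figure D3:**
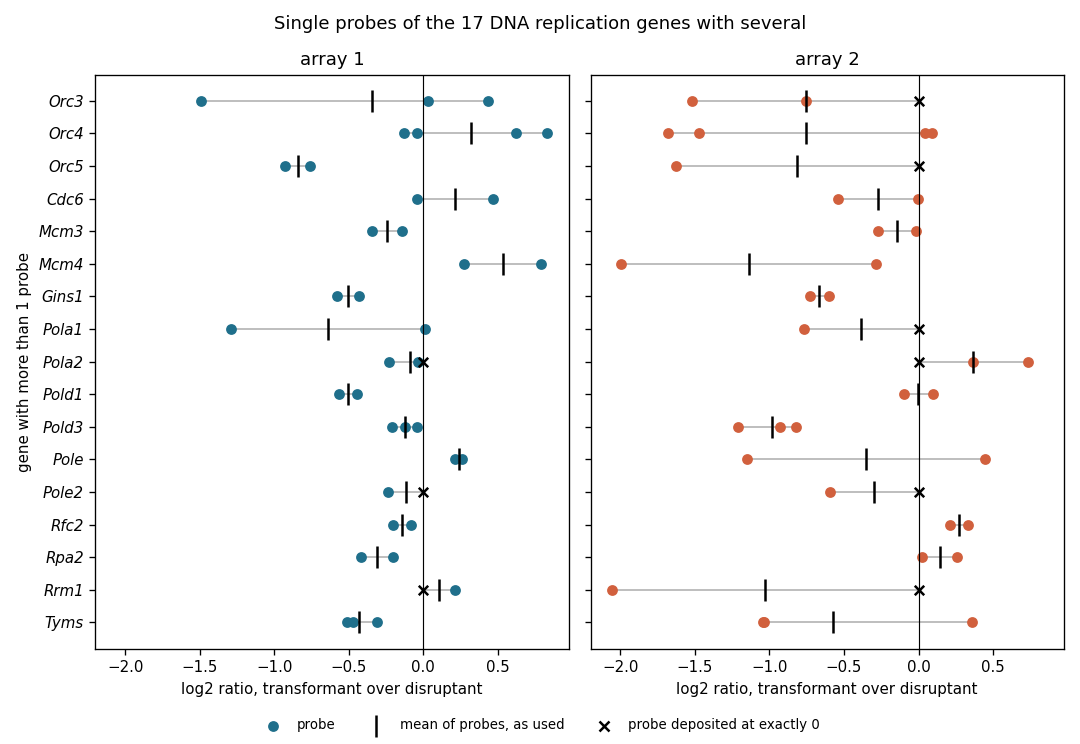
Log2 ratio of every probe (points) of the 17 replication genes with more than 1 probe, on array 1 (left) and array 2 (right), with a vertical tick at the mean of a gene's probes and a cross where the deposited value is exactly 0. Pold3, Gins1 and Rfc2 have narrow spreads, whereas Orc3, Orc4, Orc5, Mcm4, Pole, Rrm1 and Tyms span more than 1 log2 unit on array 2.

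The E2F words were about as frequent in both kinds of members. One was present in 5 of the 19 promoters of members below 0 on both arrays (26.3%) and in 4 of the 17 of members with opposite signs (23.5%). These words were found in Orc1, Orc3, Mcm6, Pola1 and Rfc3 of the first kind and in Cdc6, Mcm5, Mcm7 and Gins3 of the second. The 43 genes lie on 13 chromosomes, with the most, 8, on chromosome 5, of which 3 were below 0 on both arrays.

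Other genes of replication and of S phase control were divided between both directions. Of 50 listed, 49 were measured, of which 7 (14.3%) lay below 0 in both comparisons, 9 (18.4%) above 0 in both and 33 (67.3%) were opposite, beside the 19.4%, 22.1% and 55.4% of named genes. Their medians were 0.12 on array 1 and −0.23 on array 2, and none had an adjusted limma p under 0.05 (0 of 49, with 2 at an unadjusted p under 0.05). Lowest on both arrays was Dscc1, part of an alternative clamp loader, with −0.57 and −0.98. Pole4, an accessory subunit of polymerase epsilon, had −0.37 and −0.47, Rnaseh2b −0.09 and −1.19, and the chromatin assembly gene Chaf1b −0.07 and −0.14. Highest were Rnaseh2c, of the same RNase complex as Rnaseh2b, with 0.40 and 0.87, and the helicase gene Recql4 with 0.25 and 0.70. E2f2, of the E2F factors themselves, had 0.25 and 0.65, and the checkpoint mediator gene Clspn 0.18 and 0.23. The difference between this list and the 43 genes was not tested.

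Mitosis genes, which mark a later part of the same cycle, had a positive median on array 1 and a negative one on array 2. Of 17 measured, 2 had negative ratios on both arrays, 3 had positive ones and 12 were opposite, with medians of 0.25 and −0.15. In 11 of those 12 Cy5 was the brighter dye on both arrays, or 64.7% of the 17 beside 28.2% of named genes. The corresponding share was 51.0% for the other replication and S phase genes and 23.3% for the 43 members.

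**Figure D4:**
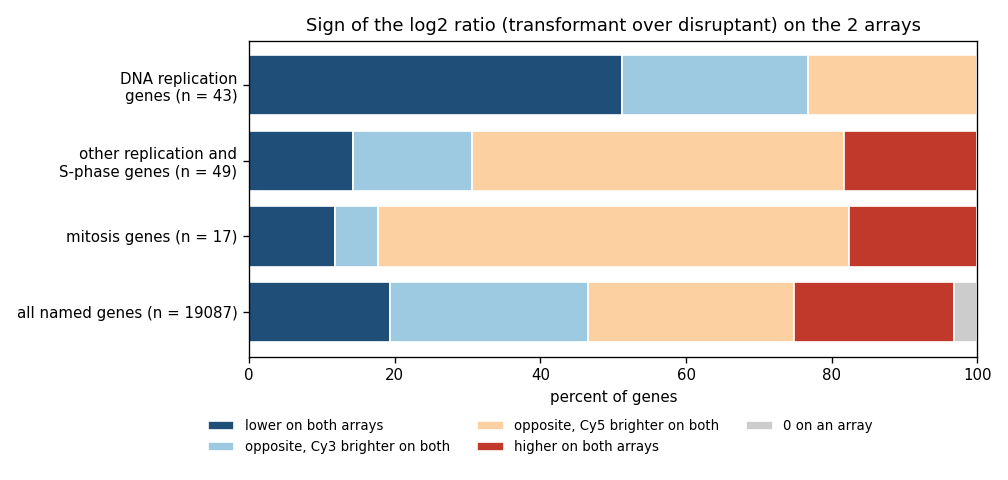
Percent of genes (horizontal axis) by the signs of their 2 array values, for the 43 replication genes, 49 other replication and S phase genes, 17 mitosis genes and all 19087 named genes. The bar of the 43 genes has the largest share below 0 on both arrays, 51.2%, and is the only one of these 4 bars with no gene above 0 on both. The short marker lists are not drawn. Of these, 75% of 8 embryonic stem cell markers lay below 0 on both, and 0 of 5 fibroblast markers above 0 on both.

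The targeted gene and the state of the cells give the setting for these values. Tcl1 had −0.37 and 0.17 from 1 probe. Whether that probe lies in the replaced exons or in the vector's insert was not established here, so it is no check of the labels. Embryonic stem cell markers were below 0 on both arrays in 6 of 8 cases (75%), beside 19.4% of named genes. These were Nanog, Sox2, Zfp42, Klf4, Esrrb and Tdgf1. Above 0 on both were 2, Pou5f1 and Utf1 (25%), beside 22.1% of named genes. Their ranges were from −1.55 to 0.10 and from −1.69 to 0.50. At 1.5-fold lower on both arrays there were 4 of the 8 (50%), beside 4.65% of the 43 members and 1.22% of named genes. Markers of differentiated lineages (7 of 8 measured) had 1 below and 1 above on both, with ranges from −0.88 to 0.76 and from −1.49 to 0.48, and fibroblast markers (5 of 5) had 2 below and 0 above, with ranges from −1.06 to 0.14 and from −0.91 to 0.19. Ratios cannot show whether a defining marker is absent. The part of these shifts, of the dyes and of the clones in the replication genes' values was not tested.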

How the data were processed

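The deposited values, 43790 spots on 2 arrays, were read as log10 ratios of the dyes. Per the submitters' processing notes the authors used Agilent Feature Extraction of a version not given in the sources used here, and the same holds for how background and dyes were corrected. A factor of 3.32 put them on the log2 scale, and array 2, with its swapped dyes, had its sign turned. The deposited columns had medians of 0 and 0. Probes were named through GEO's platform annotation, where 32042 spots had 1 symbol, 47 had several and 11701 were unlisted. Unlisted spots below −1 (log10) on both arrays, 725 in number, were taken for control spots and dropped. Probes of a symbol were averaged, which left 30110 entries.

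Each entry's mean over both arrays was set against 0 in a two-sided test by limma 3.58.1 (lmFit, then eBayes; R 4.3.3), adjusted by Benjamini-Hochberg over all entries, with a threshold of 0.05. The code was tested on simulated data. With the spread of the real entries it called 0 of 67, 0 of 67 and 0 of 66 entries changed by log2 values of 1, 2 and 4. With a constant small spread it called all of these. At the real spread 6.49% of unchanged entries had an unadjusted limma p under 0.05. Lists are described by counts and medians, with no set test. Full values were given for the 6 lowest members shared by both arrays, the 5 with the largest opposite values, the 4 lowest and 4 highest other replication genes, and all other members by role; none qualified as high on both. Lig1 was added after its value was seen. The members and lists were chosen with earlier results of these data known. The labels call the arrays biological replicates of different clones, but the transformants came from 1 disruptant clone. A limma p-value therefore covers only these pairs of clones. It sets the mean against a spread moderated over all entries, not against the spread of a gene's own values alone. The number of arrays limits the precision. Alternatives were other probe averaging, centring, exact zeros left out, other fits and limits, array 2 not turned and each array alone. Control spots kept and RefSeq mRNA probes alone were added after seeing the data.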

Additional observations from a re-analysis of the deposited data

How the results depend on the processing

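In each alternative where calls were counted, limma called 0 members over all genes (0 of 43, or 0 of 39 with RefSeq mRNA probes alone). With 2 arrays this count says nothing about stability. Calls were not counted with array 2 not turned, and each array alone allows no such test. The direction of the mean was the same for each of 254 single-gene values over the 6 alternatives with a test per gene. Much of this was fixed by construction. The fit on named genes alone and the robust variance model leave each mean unchanged. Centring moved array 1 by 0.0028 and array 2 by 0, and the 26 members with 1 probe cannot change with the way probes are averaged. The count therefore says little about stability. In the settings where it was counted, the number of members below 0 on both arrays was 19 to 22, and the number above was 0. The 19 is out of 39 members, with RefSeq mRNA probes alone. These counts were not made with array 2 not turned. With exact zeros left out, 3 members instead of 7 had an unadjusted limma p under 0.05, namely Orc5, Mcm10 and Pola1. For Orc5 and Pola1 this sets 2 probes on array 1 against 1 on array 2. The Pola1 probe used on both arrays had opposite signs, 0.01 and −0.77. With that probe alone the unadjusted limma p was 0.34. The members' median was −0.35 with RefSeq mRNA probes alone, −0.50 without array 1 and −0.15 without array 2, and 0.089 with array 2 not turned, a setting that contradicts the dye labels and removes by its construction what the 2 comparisons share. Lower on both arrays were 0 members at 2-fold and 9 at 1.2-fold, against 2 at 1.5-fold. The shares of named genes lower on both arrays at 2-fold and 1.2-fold were not counted. The median of the other replication genes was −0.23 without array 1 and 0.12 without array 2. No paired analysis was possible because each array is already a within-array ratio of 1 pair of clones and there is 1 group of arrays. Signal over background could not be judged from ratios.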
